A study of Homo sapiens with 16 samples.

Results

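Iron and heme handling was followed through 8 genes, Hmox1, Slc40a1, Fth1, Ftl1, Tfrc, Slc11a1, Blvrb and Slc48a1, in single cells of mouse mammary tumors. They were listed by name as a pathway, with earlier results of these data known, and all 8 were found among the 32285 genes of the count tables. The level of a gene in a cell type is the number of its unique molecular identifiers (UMIs, each standing for 1 captured mRNA) summed over the cells that carry that cluster name in 1 experiment, per 1000000 UMIs of those cells (CPM). UMIs were read near the 3' end of each mRNA and are not divided by gene length, so each gene is compared between cell types and not with another gene.

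Macrophages are the cells that recover iron from hemoglobin. Slc48a1 (HRG1) carries heme out of the lysosome, Hmox1 (heme oxygenase 1) opens the heme ring and frees its iron, and Blvrb is a reductase of flavins and of a biliverdin isomer. Free iron is stored in ferritin, a shell of heavy chains (Fth1) and light chains (Ftl1), or leaves the cell through Slc40a1 (ferroportin), the known iron exporter of vertebrate cells. Tfrc, the transferrin receptor, brings iron in and is high in dividing cells, and Slc11a1 (NRAMP1) moves divalent metals across the phagosome membrane of myeloid cells. Ferritin and ferroportin mRNA carry iron-responsive elements that act on translation and those of Tfrc act on mRNA stability, so mRNA levels alone do not give the protein.

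The tumors were LPA1-T22 (T22) and LPA1-T127 (T127), each 1 transplantable line derived from mice that express the LPA1 receptor as a transgene in the mammary epithelium, grown in the mammary fat pad of female FVB mice of 6 weeks and treated daily by mouth with vehicle or with 50 mg/kg olaparib, an inhibitor of PARP enzymes. The long-term experiment held 8 pools of T22 and T127 tumors, grown alone or on opposite sides of 1 mouse, after 20 days. A short-term experiment of 4 pools held T22 tumors and another of 4 pools held T127 tumors, both after 4 and 8 days. Each pool mixed several tumors and no table used here ties a cell to its tumor, so vehicle and olaparib were not compared, each experiment stands as 1 sample, and no p-value is given. Pools show how far a value repeats between captures and are not replicates of a condition. Intervals are exact 95% intervals of counting error only.

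The pools held 30845 cells (long-term), 15094 (short-term T22) and 8007 (short-term T127), with totals between 34755906 and 55600377 UMIs a pool. Long-term pools 1, 2 and 3 had cell barcodes in common, 3939 between pools 1 and 2, 987 between 1 and 3 and 1082 between 2 and 3, against at most 8 in any other pair. Only the deepest copy of each was kept, which left 25723 cells. The copies carried the same cluster name in 41.3% of 6103 pairs. Whether pools 1, 2 and 3 are separate captures was not tested, and ranges over the long-term pools count them as such. The macrophage and monocyte names (Macro-M2, Macro-M1, Macro-others, Macro-MKI67, CD16-CDKN1C, CD14-IL1B and CD14-PF4) covered 15451, 7861 and 2200 cells, and the malignant names Malign_0 and Malign_1 (T127) and Malign_2 and Malign_3 (T22) covered 6862, 1954 and 4878. Malignant cells were the deeper ones, with a median of 18461.5 UMIs a cell against 8860 in the long-term pools. Macrophage markers summed to 24813, 18887 and 21805 CPM in the macrophage and monocyte names and to 135, 101 and 25.2 CPM in malignant cells. Some names did not match their markers in full. CD14-IL1B had 8322 CPM of macrophage markers against 26796 in Macro-M2 in the long-term pools and also carried dendritic cell markers (351 CPM). Malign_0 and Malign_1 held 4317 and 4341 CPM of the fibroblast markers Dcn, Col1a1 and Col3a1 in the long-term pools, against 799 and 68.6 in Malign_2 and Malign_3. The study assigned malignant cells by copy number rather than by such markers, and it describes fibroblast lineage markers in Malign_2. The label Macro-M1 had only 3 cells in the short-term T127 pools and is given no level there.

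Hmox1, the enzyme that frees iron from heme, was highest in Macro-M2 cells among the 21 cell types of the long-term pools. Its summed level there was 257 CPM (252 to 262), with 195 in the lowest pool, a median of 255 and 437 in the highest. CD16-CDKN1C cells followed at 194 CPM (pools 135 to 300.2), then Macro-M1 at 167 (111 to 369), Macro-others at 147 (111 to 231) and Macro-MKI67, the proliferating macrophages, at 97.9 (69.5 to 125). Those neighbours overlapped in their pools. Malignant clusters lay lower, from 35.3 CPM in Malign_1 to 16.0 in Malign_3, inflammatory fibroblasts (i_CAF) had 45.7, endothelial cells 43.0, B cells 17.7, CD4_Tcm-TCF7 T cells 5.64 and NK cells 3.73. Short-term Macro-M2 cells had 112, 99.2, 115 and 110.2 CPM in T22 pools 1 to 4, and 103, 134, 95.3 and 82.8 in T127 pools 1 to 4. Every pool of the short-term experiments thus lay below the lowest long-term pool. In the short-term T127 pools CD16-CDKN1C cells (104 CPM) and Macro-M2 cells (104 CPM) could not be ordered.

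Blvrb, the flavin and biliverdin reductase, was alike in most macrophage names. Macro-M1 (379 CPM, pools 344 to 415), Macro-others (374), Macro-M2 (351, pools 311 to 387) and CD16-CDKN1C (343) overlapped in the long-term pools. B cells had 284 CPM (pools 255 to 385), above the 76.2 of CD14-IL1B and the 31.1 of CD4_Tcm-TCF7 T cells, with pools that did not meet those of either. CD16-CDKN1C was highest in the short-term T22 pools, at 299 CPM (284 to 318), apart from Macro-others at 247 (231 to 261), and Macro-M2 had 214, 181, 239.8 and 204 in its 4 pools. In the short-term T127 pools plasmacytoid dendritic cells (pDC) had 225 CPM and CD16-CDKN1C cells 199.97, while Macro-M2 had 131, 145, 155 and 136, a range that overlapped that of the malignant cells of the same pools (134 to 159.7).

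Slc48a1, the lysosomal heme transporter, was highest in T127 tumor cells. In the long-term pools Malign_1 had 116 CPM (99.5 to 126) and Malign_0 105 (89.2 to 121), with all pools of both above the 72.3 of the highest Macro-M2 pool. Among macrophage and monocyte names CD14-IL1B had 64.0 CPM (52.2 to 91.5), with a highest pool above the lowest of Malign_0. Macro-M2 had 60.9 CPM (52.4 to 72.3), Macro-M1 56.3, CD16-CDKN1C 52.1, Macro-others 51.7 and Macro-MKI67 51.5, and no pair of the 15 that 6 macrophage and monocyte names form had separate pools. Malign_2 and Malign_3 were at 33.0 and 31.3 CPM, next to CD4_Tcm-TCF7 T cells at 31.4.

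Ferritin heavy chain followed both axes, macrophage against lymphocyte and T127 against T22. Fth1 in the long-term pools was 35676 CPM in Malign_1 (pools 24766 to 42323), 34671 in Macro-M1 (31479.5 to 39659), 32043 in Malign_0 (28572 to 37925) and 28794 in Macro-M2 (26436 to 31292). It was 21228 in Macro-MKI67, 16692 in CD14-IL1B and 16583 in pDC, and then dropped to 9522 in i_CAF, 7228 in Malign_2, 7068 in Malign_3, 4621 in CD4_Tcm-TCF7 T cells and 3445 in NK cells. T127 clusters thus stood among the macrophages and T22 clusters below every macrophage name, and Malign_1 and Macro-M1 were not separable by their pools.

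Ftl1, the light chain, did not share this feature. Macro-M1 had 11985 CPM (pools 11296 to 12977), Macro-M2 11251 (10802 to 11839), CD16-CDKN1C 10977 and Macro-others 10809.6, while Macro-MKI67 had 7648 and CD14-IL1B 5571. The summed levels of all 4 malignant clusters lay below every macrophage and monocyte name, with 4285 CPM in Malign_1, 3849.7 in Malign_0, 2561 in Malign_2 and 2285 in Malign_3.

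Tfrc, through which transferrin iron enters, ran the other way. NK cells (42.7 CPM, from 80 UMIs), CD4_Treg-FOXP3 T cells (41.6, from 19 UMIs), Malign_3 (39.3), CD8_Tn-CCR7 T cells (39.0, from 18 UMIs) and Malign_2 (37.7) were at the top in the long-term pools, and the pools of those found in several overlapped. Macro-MKI67 had 13.2 CPM (6.47 to 18.4), Macro-M2 8.21 (5.19 to 12.3) and Macro-M1 3.66 (1.17 to 5.84), the latter from 43 UMIs in 982 cells. Levels were higher in both short-term experiments in most cell types. In the short-term T127 pools, regulatory T cells reached 142 CPM (112 to 186) and NK cells 116 (79.8 to 154), against 55.6 in Malign_0 and 16.4 in Macro-M2 (19.7, 15.8, 15.5 and 14.5 in the 4 pools). Malign_3 of the short-term T22 pools had 98.2 CPM (77.7 to 118), apart from Malign_2 at 53.6 (52.1 to 54.6).

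Slc11a1, the phagosomal metal transporter, had the highest ratio of macrophage to malignant level of the 8 genes in each experiment. In the long-term pools it was 117 CPM in Macro-M1 (91.8 to 148), 106 in Macro-others, 101 in CD16-CDKN1C, 99.9 in Macro-M2 (83.6 to 109) and 58.5 in Macro-MKI67, while the malignant clusters lay between 0.643 and 1.58 CPM. CD14-IL1B had 16.8 CPM. In the short-term T22 pools Macro-M2 had 144, 170.0, 145 and 144 CPM, each above the 4 Macro-M1 pools (125, 127.1, 124 and 118). In the short-term T127 pools it had 86.7, 88.6, 79.2 and 85.8 CPM, each under the 4 pools of CD16-CDKN1C (117, 153, 110.0 and 134).

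Slc40a1, the exporter, was a low-count gene throughout. Macro-M2 had 26.3 CPM in the long-term pools (24.8 to 27.9, from 1080 UMIs, pools 18.8 to 34.6), Macro-others 21.8, Macro-M1 20.3 (12.7 to 26.6), CD16-CDKN1C 18.2 and Macro-MKI67 11.5 (2.33 to 24.0). CD14-IL1B, at 1.44 CPM from 9 UMIs, lay below them with separate pools in each case but that of Macro-MKI67. CD4_Tcm-TCF7 T cells had 0 UMIs, which allows a level of up to 0.735 CPM, and NK, B, pDC, regulatory T, CD8_Tn-CCR7 and my_CAF cells had 0 UMIs as well. The latter names held fewer UMIs of all genes, from 456854 to 1874672 against 4080834 in CD4_Tcm-TCF7. Their limits are therefore higher, and these counts do not place them below CD14-IL1B. The short-term order was another one. In the T22 pools CD16-CDKN1C led with 17.2, 11.4, 9.15 and 18.6 CPM, Macro-M2 had 8.48, 4.43, 4.11 and 13.2 (71 UMIs in all) and endothelial cells 9.74 (8 UMIs). In the T127 pools Macro-M2 had 0.831, 3.69, 3.16 and 4.37 CPM (43 UMIs in all), i_CAF 3.63 (7 UMIs) and CD16-CDKN1C 0.4999 (1 UMI). CD16-CDKN1C cells were shallow, with a median of 2407 UMIs a cell in the short-term T22 pools.

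**Figure D1:**
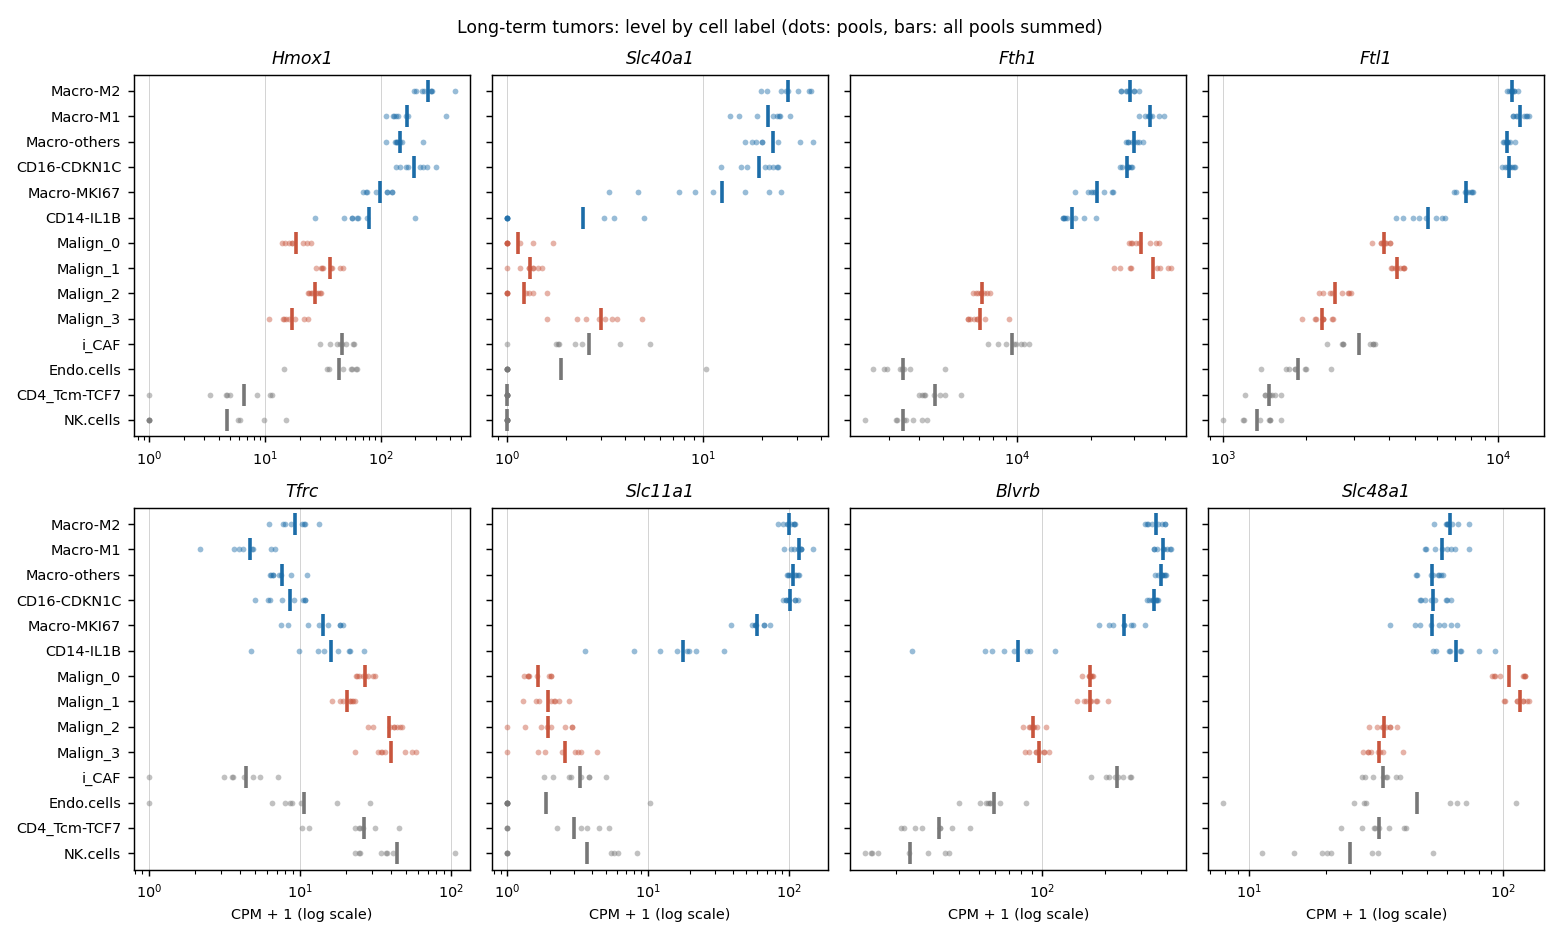
Levels of the 8 genes in 14 cell types of the long-term pools, as CPM + 1 on a log scale. Dots are pools and bars the cells of all pools summed, in blue for macrophage and monocyte names, red for malignant clusters and grey for others. By summed levels, not by every pool, Slc11a1 separates blue from red, as does Slc40a1 but for CD14-IL1B (1.44 CPM, against 2.03 in Malign_3). The summed levels of Malign_0 and Malign_1 lie above the macrophages for Slc48a1 and among them for Fth1. Tfrc is lower in macrophages than in malignant cells.

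Macrophage names were set against each other first, since the study contrasts pro-inflammatory and pro-tumor macrophages. A gene is called here when the summed levels are at least 2-fold apart and the pool ranges do not overlap. None of the 8 genes was called between Macro-M2 and Macro-M1, in the long-term pools (background 2.25% of 6715 genes with at least 10 CPM) or in the short-term T22 pools (1.85% of 7388). Hmox1 was 1.54-fold higher in Macro-M2 (1.47 to 1.62) in the long-term pools and 1.28-fold (1.18 to 1.39) in the short-term T22 pools, where the Macro-M2 pools (99.2 to 115) lay above the Macro-M1 pools (79.5 to 98.9). It was higher in Macro-M2 in 7 of 8 long-term pools, pool 4 being the other, and in 4 of 4 short-term T22 pools. Slc40a1 was 1.29-fold (1.12 to 1.49) and 1.75-fold (1.25 to 2.45) higher in Macro-M2 with overlapping pools. Fth1 was lower in Macro-M2 in the long-term pools, at a ratio of 0.830, with separate pools (26436 to 31292 against 31479.5 to 39659, where 6.22% of all genes had separate pools at any fold), but its ratio was 0.968 with overlapping ranges in the short-term T22 pools. Tfrc passed 2-fold in the long-term pools (2.24, 1.63 to 3.16) with pools that overlapped, and was at 0.804 in the short-term T22 pools. It was higher in Macro-M2 in 7 of 8 of the former and 1 of 4 of the latter. Slc11a1 changed sides as well, with a ratio of 0.855 in the long-term and 1.22 in the short-term T22 pools. Its pools and those of Hmox1 were separate in the short-term T22 pools, as in 16.8% of all genes. Blvrb, Ftl1 and Slc48a1 differed by a factor of at most 1.23 in either experiment. Macro-M1 had 1203 and Macro-M2 670 cells in the short-term T22 pools, but 3 and 1174 in the short-term T127 pools. The long-term pools mix tumors of both models, so name and model cannot be told apart in the long-term ratios.

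Single pool levels of Hmox1 rested on few cells, and the ratio of Macro-M2 to Macro-M1 differed between sets of pools. In Macro-M2 of long-term pool 8, 1 of 374 cells held 409 Hmox1 UMIs among 20470, and the 3 cells with most of them held 45.6% of the 1809 Hmox1 UMIs of that pool. In Macro-M1 of pool 4, 1 of 120 cells held 314 Hmox1 UMIs among 33430, and 3 cells held 64.6%. Without the 3 highest cells of each pool, Macro-M2 had 181 CPM (164 to 240.1) and Macro-M1 119 (99.3 to 143), with separate pools and a ratio of 1.52. Those cells were picked by Hmox1 itself, from 73 to 155 Macro-M1 and 374 to 578 Macro-M2 cells a pool. They are thus a larger part of the Macro-M1 cells, and levels without them are not an even comparison of the 2 names. Without pool 4, 1 gene was called in place of 0, namely Tfrc. Within pools 1 to 4 Hmox1 was 221 against 224 CPM, a ratio of 0.985, and within pools 5 to 8 it was 297 against 129, a ratio of 2.31 that counts as called, as did Tfrc there at 9.76 against 3.98 CPM (2.46). No share over all genes is given for calls within a set of pools. Ranges over fewer pools separate more easily, so the background given for all long-term pools does not apply to these calls. The 224 CPM includes the pool 4 cell with 314 Hmox1 UMIs. Without the 3 highest cells, Macro-M2 had 190, 183, 172 and 164 CPM in pools 1 to 4, against 143, 103, 140 and 139 in Macro-M1. In pools 5 to 8 these levels were 167, 171, 185 and 240.1 against 105, 120, 114 and 99.3 CPM. The same pool sets differed in hemoglobin UMIs, which came to 1303 to 1497 CPM in Macro-M2 and 2032 to 2826 in CD4_Tcm-TCF7 T cells in pools 1 to 4, and to 3896 to 5198 and 9033 to 12737 CPM in pools 5 to 8. Whether these, from red blood cells or free RNA, had a part in the Hmox1 values was not tested.

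**Figure D2:**
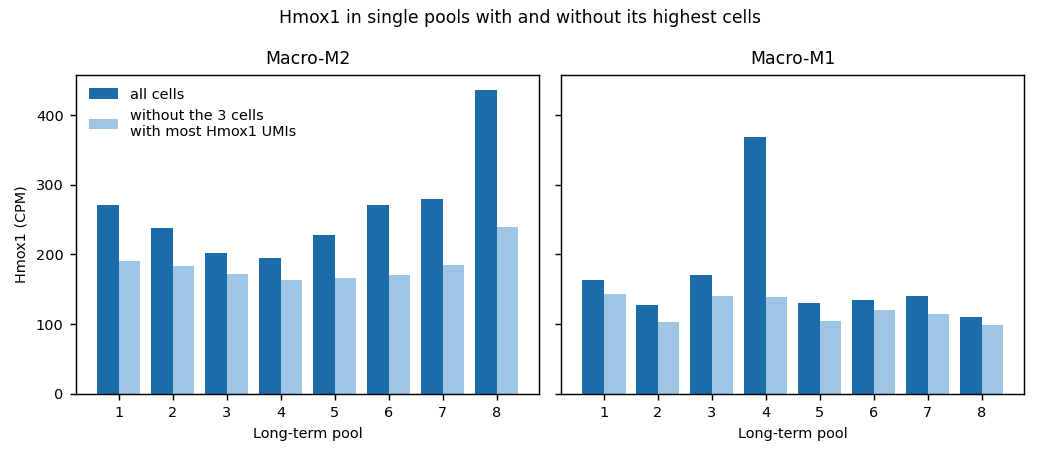
Hmox1 level in CPM in each long-term pool, for Macro-M2 (left) and Macro-M1 (right), over all cells (dark bars) and without the 3 cells with most Hmox1 UMIs in that pool (light bars). Macro-M2 pool 8 moves from 437 to 240.1 CPM and Macro-M1 pool 4 from 369 to 139.

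In Macro-M2, Hmox1 was also the most uneven from cell to cell of the 5 genes examined for this. After each cell was thinned at random to 3000 UMIs, 351 of 3510 long-term Macro-M2 cells held 70.1% of the Hmox1 UMIs, and the median cell held 0. The top 351 cells held 50.6% of Slc11a1, 37.4% of Blvrb, 24.2% of Fth1 and 21.0% of Ftl1 UMIs, each gene ranked on its own. Such a share also rises as counts fall, so the order of the genes is set in part by their counts. The 3510 cells held 2753 Hmox1, 1166 Slc11a1, 3852 Blvrb, 298291 Fth1 and 118011 Ftl1 UMIs. In the short-term pools the share for Hmox1 in Macro-M2 was 66.5% (T22) and 67.6% (T127).

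Shares of cells with at least 1 UMI, after the same thinning, rest less on single cells than levels do. Hmox1 was seen in 32.1% of long-term Macro-M2 cells (1125 of 3510, 30.5 to 33.6 by the Clopper-Pearson interval, pools 30.5 to 35.3) and in 26.0% of Macro-M1 cells (23.3 to 28.9). Malignant cells had 6.24% and CD4_Tcm-TCF7 T cells 0.780% (4 of 513). Shares in the short-term T22 pools were 21.3% for Macro-M2 and 15.7% for Macro-M1, against 5.73% and 0.722% in the same malignant and T cells. The thinning left out 57 long-term Macro-M2 cells and 623 of the T cells, whose median depths before it, over the cells kept, were 11255.5 and 4824 UMIs. Without thinning the long-term Macro-M2 share was 64.7%. Slc40a1 was seen in 5.24% of long-term Macro-M2 cells (184) and 5.18% of Macro-M1 cells, against 0.160% of malignant cells and 0 of 513 T cells, which allows a share of cells with a UMI of up to 0.585% (3 of 513). In the short-term T22 pools it was in 0.896% of Macro-M2 cells (6 cells). Slc48a1 had a high share in T cells (10.9% long-term), close to Malign_2 (9.25%) and Malign_3 (9.37%), while Macro-M2 had 15.8%, Malign_0 26.5% and Malign_1 31.1%.

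Among the macrophage and monocyte names, CD14-IL1B was the lowest for Hmox1, Slc40a1, Fth1, Ftl1, Slc11a1 and Blvrb in all 3 experiments, CD14-PF4 with its few cells left aside. Of the pairs that 6 names form in the long-term pools, pools were separate in 10 of 15 for Fth1, 9 of 15 for Ftl1, Slc11a1 and Blvrb, 4 of 15 for Slc40a1, 2 of 15 for Hmox1, 1 of 15 for Tfrc and 0 of 15 for Slc48a1. For the short-term T22 pools these numbers were 13, 11, 13, 13, 5, 11, 9 and 8 in the same order of genes. In the short-term T127 pools, where 5 names form 10 pairs, they were 7, 8, 8, 9, 1, 4, 3 and 0. Over all genes with 10 CPM, 11.8% of the pairs were separate in the long-term, 36.6% in the short-term T22 and 28.6% in the short-term T127 pools. Macro-M2 was called higher than CD14-IL1B in the long-term pools (background 9.54%) for Slc40a1 (18.3-fold), Slc11a1 (5.95-fold), Blvrb (4.61-fold) and Ftl1 (2.02-fold). For Hmox1 the ratio was 3.26 with overlapping pools. In the short-term pools Hmox1 was called too, at 5.76-fold (T22, background 19.7%) and 4.18-fold (T127, background 18.9%), as were Blvrb (5.41-fold and 5.85-fold), Slc11a1 (5.02-fold and 6.83-fold) and Fth1 (2.59-fold and 2.18-fold). Slc40a1 was called on low counts, 71 and 43 UMIs in Macro-M2 against 0 in CD14-IL1B, at least 7.27-fold and at least 2.50-fold higher with 3 UMIs over all pools set for the 0. Tfrc was called lower in Macro-M2 in the short-term T127 pools, 16.4 against 38.7 CPM (0.424). Since CD14-IL1B also had a lower macrophage marker level than Macro-M2, a lower level per macrophage and fewer macrophages under that name cannot be told apart. Against Macro-others, compared in the long-term pools alone, Macro-M2 had 0 of the 8 genes called (background 2.34%), with Hmox1 at 1.75-fold and overlapping pools.

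Against malignant cells, the macrophage and monocyte names summed had more Hmox1, Slc40a1 and Slc11a1 and less Tfrc in every experiment. In the long-term pools 5 genes were called higher and 1 lower, against a background of 39.3% of 7544 genes called in either direction, 14.9% higher and 24.4% lower. In the short-term T22 pools 6 were higher and 1 lower (background 45.4% in either direction, 18.3% higher and 27% lower), and in the short-term T127 pools 3 were higher and 1 lower (40.3%, 12.4% higher and 27.9% lower). The background covers genes with at least 10 CPM over both sides pooled, which held for 8, 7 and 6 of the 8 genes. Slc40a1 fell short of it in both short-term experiments and Slc11a1 in the short-term T127 pools, and they are counted all the same.

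Hmox1 was 7.81-fold higher in the long-term pools (7.53 to 8.10), with macrophage and monocyte pools at 162 to 207 CPM and malignant pools at 19.8 to 27.9. It was 4.36-fold higher in the short-term T22 pools (89.8, 85.8, 90.7 and 82.6 against 22.1, 19.5, 17.8 and 20.4) and 6.56-fold in the short-term T127 pools (84.0, 97.6, 74.2 and 73.4 against 14.1, 12.8, 11.4 and 11.7). No macrophage pool came near a malignant pool. Slc11a1 was 110-fold higher (91.8 to 132), 293-fold (194 to 468) and 137-fold (111 to 171) in the 3 experiments, and Slc40a1 50.5-fold (38.8 to 66.8), 20.5-fold (13.0 to 34.4) and 39.2-fold (19.2 to 90.4). The malignant side of Slc40a1 came from 57, 19 and 9 UMIs, and most of the T22 part sat in Malign_3 (2.03 and 2.48 CPM) rather than Malign_2 (0.213 and 0.126 CPM). Macrophage markers summed to 257 CPM in Malign_3 and 165 in Malign_2 in the long-term pools and to 58.0 and 105 among T22 pools of the short-term experiments. The malignant level of Slc11a1 was 0.913%, 0.341% and 0.730% of the macrophage level, beside 0.543%, 0.532% and 0.116% for the 8 macrophage markers, and that of Hmox1 was 12.8%, 22.9% and 15.2%.

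Tfrc was 3.53-fold higher in malignant cells in the long-term pools (24.3 to 32.3 against 5.88 to 9.73 CPM), 5.78-fold in the short-term T22 pools (57.7, 58.9, 58.9 and 56.5 against 10.5, 8.50, 11.2 and 9.91) and 2.27-fold in the short-term T127 pools (51.8, 54.0, 49.1 and 49.8 against 22.8, 18.6, 24.3 and 24.5). The pools were separate in each experiment. Ftl1 was 2.98-fold and 4.48-fold higher in macrophages in the long-term and short-term T22 pools and 1.94-fold in the short-term T127 pools. Fth1 was called only in the short-term T22 pools (3.85-fold), with ratios of 1.09 and 1.10 in the others. Blvrb was 2.30-fold, 3.42-fold and 0.876-fold, and Slc48a1 0.634, 1.31 and 0.557.

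Fth1, Blvrb and Slc48a1 depended on which tumor cells were the reference. Against T127 malignant cells alone the long-term ratios were 0.849 for Fth1, 2.01 for Blvrb and 0.508 for Slc48a1, and against T22 malignant cells alone 3.97, 3.69 and 1.71. By single names, Macro-M2, Macro-M1, Macro-others and CD16-CDKN1C each gave 5 higher and 1 lower in the long-term pools (backgrounds 40.2%, 42.4%, 39.8% and 40% in either direction). Macro-MKI67 gave 4 and 1, without Blvrb (35.4%), and CD14-IL1B gave only Slc11a1 (38.8%). In the short-term T22 pools Macro-M1, Macro-M2, Macro-others and CD16-CDKN1C each gave 6 higher and Tfrc lower (46.2%, 48.1%, 47.4% and 47.3%). Macro-MKI67 gave 5 and 1, without Slc40a1 (43.7%), and CD14-IL1B Ftl1 and Slc11a1 higher and Tfrc lower (50.2%). In the short-term T127 pools Macro-M2 gave 4 higher, Hmox1, Slc40a1, Ftl1 and Slc11a1, and Tfrc lower (42.8%). CD16-CDKN1C gave Hmox1, Ftl1 and Slc11a1 higher and Tfrc lower (40.1%). Macro-MKI67 and Macro-others gave only Hmox1 and Slc11a1, both higher (38.9% and 39.1%), and CD14-IL1B Slc11a1 higher and Blvrb lower (43.1%). CD14-IL1B had 0 Slc40a1 UMIs in both short-term experiments, which meets the rule as lower, but the limit of a count of 0 (1.07 and 1.21 CPM) lies above the malignant levels of 0.359 and 0.0512.

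**Figure D3:**
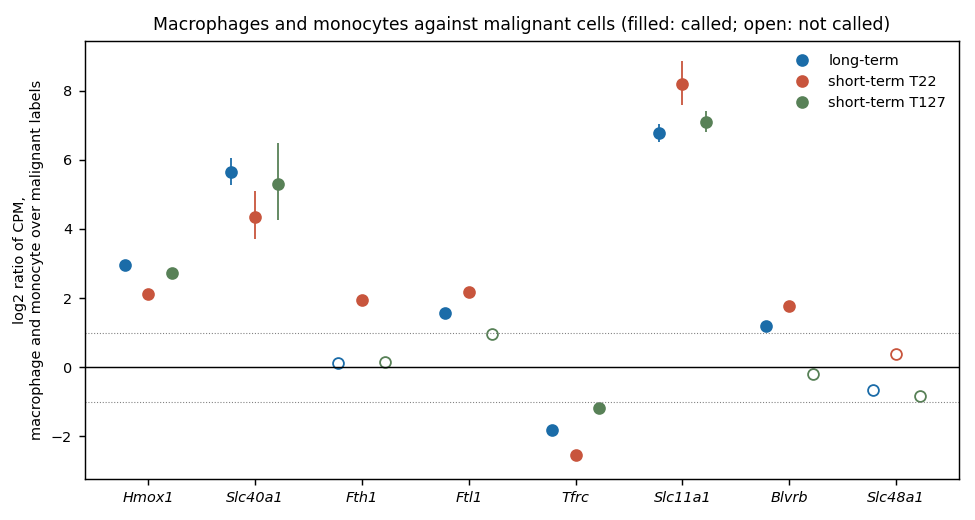
Log2 of the level in all macrophage and monocyte names over that in malignant cells, for each gene and experiment, with the 95% interval of counting error. Filled marks are at least 2-fold apart with separate pools, open marks are not, and the dotted lines stand at 2-fold. Slc11a1, Slc40a1 and Hmox1 lie above and Tfrc below the lines in all 3 experiments, while Slc48a1 lies on both sides of 0.

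T127 and T22 differ in their response to olaparib in the study, and both occur in the same long-term pools. T127 malignant cells had 4.67-fold more Fth1 than T22 malignant cells there, 33475 against 7164 CPM. Pools 1 to 8 of T127 were at 39543, 34875, 35867, 39541, 28411, 27499, 29354 and 30084 CPM, and those of T22 at 7151, 6987, 7276, 8326, 6822, 7105, 6470.0 and 6565. The lowest T127 pool was therefore more than 3-fold above the highest T22 pool. Slc48a1 was 3.37-fold higher in T127, 109 against 32.3 CPM, with pools of 93.4 to 123 against 29.8 to 35.6. These 2 of the 8 genes were called, against a background of 34.3% in either direction and 20.1% higher. Blvrb (1.84-fold) and Ftl1 (1.64-fold) had separate pools below 2-fold, as 63.9% of all genes had separate pools at any fold. Hmox1 was at 1.12, and Tfrc at 0.606 with pools of 20.2 to 25.7 in T127 and 25.2 to 50.0 in T22 that met at their edges. Slc40a1 was at 0.1996 against 0.941 CPM, a ratio of 0.212 (0.117 to 0.375), from 20 and 37 UMIs, lower in T127 in 8 of 8 pools but with ranges that overlapped.

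The short-term pools held 1 model each, so model and capture cannot be told apart there. Fth1 was 14310.3, 15155, 17196 and 14752 CPM in T127 malignant cells and 3915, 3680.4, 3967 and 3933 in T22, a ratio of 3.96. Slc48a1 was 91.0, 94.6, 97.4 and 94.6 against 32.5, 30.0, 32.0 and 30.1, a ratio of 3.03. Ftl1 (3655 against 1599.7 CPM, 2.29-fold) and Blvrb (142 against 65.8, 2.16-fold) were called as well, which made 4 of 8 (background 38.1%, 23.5% higher). Hmox1 ran the other way at a ratio of 0.628, with 14.1, 12.8, 11.4 and 11.7 CPM in T127 below 22.1, 19.5, 17.8 and 20.4 in T22 (86% of all genes had separate pools at any fold). Slc40a1 had a ratio of 0.143 (0.0568 to 0.331), from 9 and 19 UMIs, with overlapping ranges. Within a model, Malign_1 had more Hmox1 than Malign_0 (35.3 against 17.5 CPM long-term, and 18.9 against 7.03 short-term), and Malign_2 more than Malign_3 (26.0 against 16.0 and 21.2 against 8.58). No share over all genes was computed for these pairs of clusters. The fibroblast markers given above moved with the T127 names, and their part in the Fth1 and Slc48a1 values was not tested.

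The 2 ferritin chains were out of step in T127 cells. T127 malignant cells held 8.32 Fth1 UMIs per Ftl1 UMI in the long-term pools (6.58 to 10.4, median 7.96) and 4.20 in the short-term pools (4.06 to 4.34). T22 malignant cells held 2.92 (2.48 to 3.60) and 2.42 (2.32 to 2.55), and the macrophage and monocyte names 2.66 (2.54 to 2.94) in the long-term pools, 2.08 in the short-term T22 pools and 2.38 in the short-term T127 pools. The T127 pools were thus separate from T22 and macrophage pools in each experiment. Plasmacytoid dendritic cells had a ratio of 4.70 in the long-term and 5.47 in the short-term T127 pools, and regulatory T cells (CD4_Treg-FOXP3) 4.04 and 4.08. The ratio does not give the make-up of the ferritin shell, since UMIs of different genes are not on 1 scale. Tfrc per 1000 Fth1 UMIs, uptake set against storage, was 0.274 in long-term macrophages and monocytes, 0.694 in T127 malignant cells, 5.35 in T22 malignant cells and 12.4 in NK cells.

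**Figure D4:**
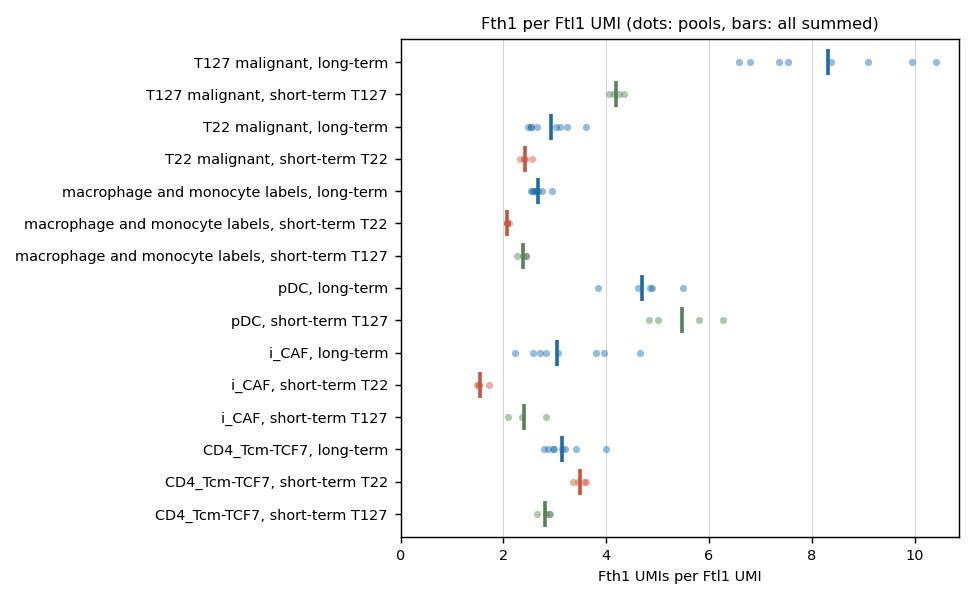
Fth1 UMIs per Ftl1 UMI by cell type and experiment, in blue for long-term, red for short-term T22 and green for short-term T127 pools. Dots are pools and bars all pools summed. T127 malignant cells stand at 8.32 in the long-term and 4.20 in the short-term pools, above macrophages and T22 malignant cells.

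Macro-M2 cells of short-term T127 and T22 tumors were compared as the same name in both models, with model and capture again inseparable. None of the 8 genes was called (background 12.1% of 7370 genes). Slc11a1 was lower in T127 at a ratio of 0.567 (79.2 to 88.6 against 144 to 170.0 CPM) and Blvrb at 0.676 (131 to 155 against 181 to 239.8). Tfrc was 1.84-fold higher (1.42 to 2.40) and Fth1 1.40-fold higher. These 4 had separate pools below 2-fold, where 50.9% of all genes had separate pools at any fold. Slc40a1 passed 2-fold at 0.388 (0.259 to 0.574) but its pools overlapped, and Hmox1 and Slc48a1 were both at 0.956.

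**Figure D5:**
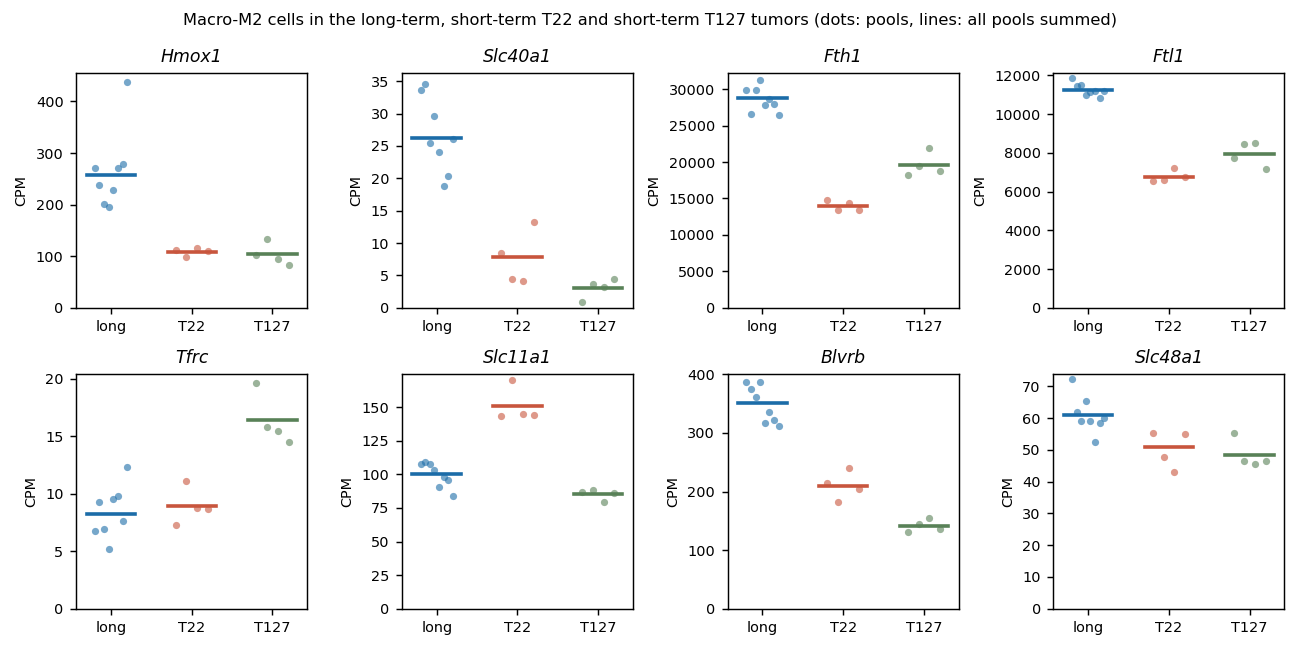
Levels of the 8 genes in Macro-M2 cells in CPM, 1 panel a gene, with a dot for each pool and a bar for all pools summed in each experiment. Hmox1 and Slc40a1 are higher in the long-term pools than in any short-term pool, and Slc11a1 is highest in the short-term T22 pools.

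Long-term and short-term values were set side by side name by name, a comparison chosen after the values had been seen. Time of treatment, transplant setting and capture differ together and cannot be told apart. For names other than the malignant clusters the mix of T22 and T127 tumors differs as well, and cannot be told apart from these. Fth1 and Ftl1 were higher in the long-term pools in 16 of 16 names shared with the short-term T22 pools, by 1.51-fold to 3.14-fold (median 1.87) and 1.22-fold to 1.84-fold (1.57), and in 14 of 14 names shared with the short-term T127 pools (medians 1.53 and 1.29). Of genes with 10 CPM in all names, 14.6% were higher in every name against T22 and 11.1% against T127. Blvrb and Hmox1 were higher in 16 of 16 names against T22 (medians 1.53 and 1.91) and in 12 of 14 against T127, but both were under 10 CPM in some name against T22, and Hmox1 against T127 as well. Tfrc was lower in 13 of 16 (median 0.701) and 14 of 14 (median 0.411). Of genes with 10 CPM in all names 23.7% and 26.3% were lower in every name, but Tfrc, too, is not among these genes. The other 3 genes had no single direction. Slc48a1 was higher in 13 of 16 names against T22 and 9 of 14 against T127, Slc11a1 in 5 of 15 and 6 of 12 and Slc40a1 in 6 of 12 and 7 of 9 names with a ratio. The names included T cells, NK cells and tumor cells. Hemoglobin UMIs differed between the experiments too. CD4_Tcm-TCF7 T cells had 12.9 to 25.7 CPM of them in the short-term T22 pools and 13.5 to 54.0 in the short-term T127 pools, against at least 2032 in the long-term pools. Macro-M2 cells had 0.404 to 1.03 CPM in the short-term T22 pools and 13.3, 43.0, 1555 and 13.7 in T127 pools 1 to 4. Macro-M2 cells of long-term pools 1 to 4 had 1303 to 1497 CPM of hemoglobin and 195 to 272 of Hmox1. In T127 pool 3, with 95.3 CPM of Hmox1 in Macro-M2, hemoglobin was 1555 CPM in Macro-M2 but 31.8 in CD4_Tcm-TCF7 T cells. The T cells of long-term pools 1 to 4 had 2032 to 2826 CPM, so these pools are not alike. The part of hemoglobin RNA in the result was not tested.

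Within the long-term experiment pools 1 to 4 and pools 5 to 8 stood apart in many genes, although no label names a batch. In T127 malignant cells Fth1 (34875 to 39543 against 27499 to 30084 CPM), Slc48a1 (117 to 123 against 93.4 to 100.04) and Hmox1 (25.2 to 30.4 against 19.7 to 23.4) did not overlap between the sets, where 42.2% of all genes did not. In the macrophage and monocyte names 5 of the 8 did not overlap, where 47.3% of all genes did not. Slc40a1 was 22.5 to 27.7 against 15.6 to 19.6 CPM, Fth1 28498 to 30972 against 26240 to 28108, Blvrb 341 to 362 against 314 to 338, Slc48a1 55.4 to 64.4 against 49.97 to 53.8 and Tfrc 5.88 to 6.77 against 8.19 to 9.73. In T22 malignant cells 3 were lower in pools 1 to 4, where 25.1% of all genes did not overlap. Ftl1 was 2213 to 2350 against 2598 to 2685 CPM, Tfrc 25.2 to 38.3 against 38.5 to 50.0 and Slc11a1 0.448 to 0.778 against 1.56 to 2.53. Macrophages over malignant cells gave the same 6 genes called in each set, with Hmox1 at 7.33 and 8.58, Slc40a1 at 58.5 and 43.4 and Tfrc at 0.249 and 0.302. T127 over T22 malignant cells gave Fth1 at 5.01 and 4.25 and Slc48a1 at 3.63 and 3.06, both called in each set. Slc40a1 was called lower in T127 only in pools 1 to 4 (0.223 against 0.916 CPM) and Slc11a1 only in pools 5 to 8 (0.734 against 1.94 CPM). For calls within a set no share over all genes is given. The ratios of Macro-M2 to Macro-M1 by set are given above.

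A list of 41 further genes of heme uptake, heme synthesis, iron transport, storage and regulation was described beside the 8. Of those with 10 CPM in the comparison, 7 of 24 were called higher and 5 lower in long-term macrophages against malignant cells, 8 and 6 of 25 in the short-term T22 pools and 7 and 3 of 25 in the short-term T127 pools. These were 50% (12 of 24), 56% and 40% of the list, beside 39.3%, 45.4% and 40.3% of all genes. The median log2 ratio of the list was -0.19, 0.05 and 0.42, against 1.39, 2.03 and 0.55 for the 8 genes and -0.35, -0.33 and -0.37 for all genes. Genes called below 10 CPM are named too. Spic, a transcription factor of iron-recycling macrophages, had 15.5 against 0.0717 CPM in the long-term pools, and Hfe, which acts on iron sensing, 83.8 against 2.87 (29.2-fold). Cd163, the hemoglobin-haptoglobin receptor, was at 7.51 against 2.00 CPM (3.76-fold), where T22 malignant cells had 6.95 and T127 malignant cells 0.0599 CPM. Hebp1, a heme-binding protein, was at 383 against 104 (3.70-fold). Abcg2 was higher too, at a log2 ratio of 3.23. Lowest in macrophages by ratio were Cybrd1 and Heph, at log2 ratios of -4.53 and -4.28. Lower as well were Lcn2 (lipocalin, a siderophore binder) at 21.4 against 403 CPM, Ltf (lactotransferrin) at 2.00 against 19.2 and Steap3 (a ferrireductase) at 0.863 against 5.21. The direction of the last 2 turned with the reference, since Ltf was at 0.2196 CPM in T127 and 67.5 in T22 malignant cells and Steap3 at 7.17 and 0.229. Against T22 tumor cells of the short-term pools Hfe was 72.5-fold and Hebp1 12.5-fold higher in macrophages and Lcn2 was 12.3 against 950 CPM.

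Few genes of the list were called between Macro-M2 and Macro-M1. Fbxl5, which controls degradation of an iron-regulatory protein, was called between Macro-M2 and Macro-M1 in the long-term pools at 38.9 against 18.0 CPM (2.16-fold, 1.87 to 2.50), the only 1 of 25 (4%, beside 2.25% of all genes), and 0 of 24 were called in the short-term T22 pools. Cd163 was 13.7 CPM in long-term Macro-M2, 8.27 in CD16-CDKN1C, 3.43 in Macro-others and 1.79 in Macro-M1, with pools of the first and the last that overlapped. Between the short-term experiments 2 of 24 were called in Macro-M2 (8.33%, beside 12.1% of all genes). Macro-M2 of T127 had more Slc39a14, a metal importer (45.8 against 15.0 CPM, 3.04-fold), and more Fbxl5 (68.2 against 24.5, 2.78-fold) than that of T22, and less Spic (2.04 against 12.4).

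T127 over T22 malignant cells gave 2 higher and 4 lower of 23 genes of the list in the long-term pools and 4 and 3 of 24 in the short-term pools. These were 26.1% and 29.2% of the list, beside 34.3% and 38.1% of all genes. Lrp1, a receptor that takes up heme bound to hemopexin among other ligands, was at 779 against 38.2 CPM (20.4-fold) and 1390 against 89.3 (15.6-fold). Cybrd1, a ferric reductase, was 7.75-fold and 15.9-fold higher. Aco1, an iron-regulatory protein, was lower at 8.12 against 63.8 CPM and 16.0 against 101. In the long-term pools Steap3 (log2 ratio 4.97) and Slc39a8 (4.27) were higher in T127 too. Ltf (-8.26), Cd163 (-6.86), Bmp6 (-6.21) and Abcg2 (-4.36) were lower there. Lcn2 in the short-term pools was 3.95 CPM in T127 and 950 in T22.

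The genes whose levels ran most alike over the 21 long-term cell types were found by Pearson r of log2(CPM + 1) among 11794 genes, as a description of cell types that share libraries. For Hmox1 they were Atp7a (0.933), Mfsd12 (0.932) and Ctsz (0.929), and for Slc11a1 they were Slc13a3 (0.978), Pilra (0.9496) and Abhd12 (0.947). Ftl1 ran with Nfe2l2 (0.957), Ctsz (0.938) and Gsg1 (0.932), and Fth1 with Prdx5 (0.904), Cstb (0.898) and Vps26a (0.895). Slc40a1 ran with A830008E24Rik (0.967), Adamdec1 (0.962) and Dppa3 (0.960), but these r fell to 0.537, 0.507 and 0.638 over the short-term T22 names and to -0.330, 0.150 and 0.350 over the short-term T127 names. Tfrc ran with Mbnl3 (0.889), Snrpd2 (0.888) and Ndufb3 (0.871), Blvrb with Abraxas2 (0.878), Snx30 (0.873) and Lhfpl2 (0.865), and Slc48a1 with Rnh1 (0.875), Socs6 (0.858) and Nudt9 (0.834). Over the short-term T127 names r was also low for Hmox1 with Mfsd12 (0.449), Tfrc with Ndufb3 (0.291) and Slc48a1 with Socs6 (0.482) and Nudt9 (0.404), and over the short-term T22 names for Slc48a1 with Nudt9 (0.207). Among the 8 genes, Hmox1 and Ftl1 were at 0.929 and Hmox1 and Tfrc at -0.718.

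Within long-term Macro-M2 cells thinned to 3000 UMIs, the 184 cells with a Slc40a1 UMI had 611 CPM of Hmox1 against 242 in the other 3326 (2.52-fold, 2.24 to 2.83) and 768 of Blvrb against 344 (2.24-fold). Fth1 was at 0.914 and Ftl1 at 1.38 of the level in the other cells. Under other long-term names the Fth1 ratio was 1.27 (Macro-M1), 1.23 (CD16-CDKN1C) and 1.03 (Macro-others), with Hmox1 at 1.71, 3.56 and 1.79 and Blvrb at 1.55, 1.97 and 1.57. The Hmox1 ratios can rest on single cells. After thinning, 1 Macro-M2 cell held 171 and 1 CD16-CDKN1C cell 181 Hmox1 UMIs. All cells with a Slc40a1 UMI held 337 and 258 under these names, and ratios without the highest cells were not computed. The 77 cells with a Cd163 UMI had 693 CPM of Hmox1 against 252 (2.75-fold), 104 of Slc40a1 against 25.6 (4.05-fold) and 16199 of Fth1 against 28600 (0.566). Tfrc differed most between these cells, with 51.9 CPM against 5.63 (9.22-fold, 4.51 to 17.4), from 12 UMIs, and in long-term CD16-CDKN1C cells split in the same way it was 4.77-fold higher (1.27 to 12.7), from 4 UMIs. Cells of 1 library are not replicates, so these intervals cover counting error only.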

How the data were processed

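Per the labels, tumors were dissociated, tagged with multiplexing oligos, pooled and captured with a 3' droplet kit, and reads were mapped by the authors with Cell Ranger 6.0.0 on GRCm38. By the study's methods introns were counted, low-quality cells were filtered on genes and mitochondrial UMIs, and doublets were removed with Scrublet. They were not called again. The deposited unit is raw UMI counts per gene and cell, with a cluster name per cell, and 0 columns of other samples were met. A deposited normalized signal for part of the genes was not used.

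Counts were summed per name and experiment (at least 50 cells, and 20 a pool for pool ranges) as CPM over all genes, with the deepest copy of shared barcodes in the long-term pools. Poisson, conditional binomial and Clopper-Pearson intervals are exact, at 95%, for counting error only, and a count of 0 is given the limit that 3 counts set. The 8 genes and all lists were chosen with earlier results of these data known. Named are all 8 genes, some or all of the 5 called genes with the largest ratios a direction of the list of 41, and 3 most alike genes for each of the 8. Alternatives were cell filters (3000 UMIs, 1000 genes, top 5% of cells by UMIs), denominators, means over cells, medians over pools, folds of 1.5 and 3, a pseudocount of 10 CPM, pools left out and barcode rules. Pool sets, other references and the highest Hmox1 cells were added after seeing the data. Ratios and intervals were tested on simulated data. The software was Python 3.11.15 with pandas 2.3.3, numpy 2.4.6, matplotlib 3.10.9 and scipy 1.17.1.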

Additional observations from a re-analysis of the deposited data

Results flagged for a closer look

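Of 64 groups of pools (each of the 8 genes in Macro-M2, Macro-M1 and malignant cells, by experiment where 4 or more pools gave a value), 4 held a pool that stood apart from the others by Dixon's criterion, where chance gives about 1 in 20. Hmox1 in long-term Macro-M1 was 369 CPM in pool 4, with the next pool at 170.1 and the lowest at 111. Hmox1 in long-term Macro-M2 was 437 CPM in pool 8, with the next at 279 and the lowest at 195. In both, a few cells held much of the gene, as given above. Slc11a1 in short-term T22 Macro-M2 was 170.0 CPM in pool 2 (next 145, lowest 144), and Slc48a1 in short-term T127 Macro-M2 was 55.4 CPM in pool 1 (next 46.5, lowest 45.4). Slc48a1 was higher in Macro-M2 than in malignant cells in every short-term T22 pool, at a ratio of 1.63 (50.7 against 31.2 CPM), and lower in every short-term T127 pool, at 0.514 (48.5 against 94.4 CPM). The difference between the experiments was not tested.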

How the results depend on the processing

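Of the alternative values of the comparisons and shares, 139 stayed near the reported value (counts of called genes within 1.5 times) and 23 moved. Of log2 ratios of single genes and shares of all genes called, 1703 stayed within the spread between pools (shares within 1.5 times), 180 moved beyond it and 2 were counted as reversed. The count of 2 does not cover every change of sign. Long-term macrophages over malignant cells gave Slc48a1 at 0.634, but 1.71 against T22 cells only. Fth1 was at 1.09 there, but 0.849 against T127 cells only. Hmox1 in Macro-M2 over Macro-M1 was at 1.54, but 0.985 within pools 1 to 4. Macro-M2 against Macro-M1 in the long-term pools (0 called) gave 2 within pools 5 to 8 (no share over all genes is given there) and 1 without the condition on pool ranges, and 0 to 1 with a pool left out, 1 being without pool 4. The short-term T127 against T22 Macro-M2 count (0) gave 1 without mitochondrial, ribosomal and hemoglobin genes, 1 with the mean of each cell's CPM, 1 without the condition on pool ranges, 2 at 1.5-fold, and 0 to 1 with a pool left out (1 without T127 pool 4, T22 pool 2 or T22 pool 3). Macrophages against malignant cells gave 2 in place of 4 in the short-term T127 pools with 10 CPM added, and with a pool left out 6 to 6 (long-term), 7 to 7 and 4 to 4. T127 against T22 malignant cells gave 4 in place of 2 at 1.5-fold (long-term) and 2 in place of 4 at 3-fold (short-term), and 2 to 2 and 4 to 5 with a pool left out. Shares of Macro-M2 cells with a Hmox1 UMI were 20.7%, 11.04% and 12.6% at 1500 UMIs and 64.7%, 50.3% and 49.1% without thinning, and for Slc40a1 3.05% (long-term, 1500 UMIs) and 11.1%, 3.73% and 1.02% without it. The log2 ratio of Ltf, -3.26 against all malignant cells, was 3.19 against T127 cells only, and that of Steap3, -2.59, was 1.91 against T22 cells only. No paired analysis was possible because pools with equal numbers in the 3 experiments are separate captures, a limit that holds between experiments only. Cell types of 1 pool do share it, and were compared pool by pool, with no test. Hmox1, Slc40a1 and Tfrc were higher in Macro-M2 than Macro-M1 in 7 of 8 long-term pools and Fth1 and Ftl1 lower in 8 of 8. Slc40a1 outside macrophages, in most cell types, rests on under 10 UMIs, which limits its order there.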
